A study of Saccharomyces cerevisiae with 4 samples.

Results

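The Ty1 and Ty2 Gag-Pol genes of *Saccharomyces cerevisiae* were described element by element in a strain without *SIS2* and in its wild type. They were taken as the rows of the deposited count table whose systematic names stood on a list of 36 Gag-Pol open reading frames, chosen with the difference between the 2 strains already known. Of the 36, 35 were analysed among 6692 genes in all, and YNL054W-B was not analysed here. The *sis2Δ* strain carried a kanMX cassette in place of *SIS2* and came from the MATa knockout collection. It was set against the parental strain BY4741 (WT), and both were haploid MATa *his3Δ1 leu2Δ0 met15Δ0 ura3Δ0* cells grown to mid-log phase in synthetic complete medium with 2% glucose. *SIS2* encodes a regulatory subunit of the Ppz1 phosphatase that also takes part in coenzyme A synthesis. Each strain had 2 independent cultures, called A and B, from which polyA-selected, stranded libraries were made and sequenced as paired reads.

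Ty1 and Ty2 are related families of long terminal repeat retrotransposons in budding yeast. Their full-length RNA is copied into DNA by the element's own reverse transcriptase inside particles built from Gag, and the copy is joined to the genome by integrase, mostly upstream of genes read by RNA polymerase III. Gag-Pol is made when ribosomes slip forward by 1 base near the end of the Gag reading frame, and transcription of Ty1 uses Ste12 and Tec1, the factors at the end of the mating and filamentous growth kinase pathways, bound inside the transcribed region.

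The slippery site of 7 bases was found in all 34 listed genes that the annotation gives in 2 coding parts, and its surroundings fell into 4 versions. The site is shown in capitals with the 12 bases on each side because it marks where a Gag-only product and Gag-Pol part, and because its flanks tell Ty2 from Ty1. The examples lie at chrXII:594728-594758 (plus strand), chrIV:991029-991059 (minus strand), chrIV:649806-649836 (minus strand) and chrIV:518048-518078 (minus strand) of genome build R64, and the sequences are RefSeq's.
YLR227W-B (Ty1): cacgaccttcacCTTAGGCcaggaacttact
YDR261C-D (Ty1): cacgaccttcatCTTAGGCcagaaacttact
YDR098C-B (Ty1): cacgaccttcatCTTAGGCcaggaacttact
YDR034C-D (Ty2): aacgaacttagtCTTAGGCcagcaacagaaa
The first version stood in 13 listed genes, the second in 14, the third in 2 and the Ty2 version in 5. YAR009C and YLR035C-A were annotated with 1 coding part, without this junction.

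A second stretch is shown because it divides the Ty1 copies, a division chosen after the fold changes had been seen. Within the first 600 bases of each annotated element, the letters TGAAAC, to which Ste12 binds, and CATTCT or CATTCC, to which Tec1 binds, were searched on both strands. A pair was counted where both stood on 1 strand with starts at most 30 bases apart. Both strings lie on the minus strand here, so the element's own strand reads GTTTCA and AGAATG, which are the capitals in the 48 bases below. The windows lie at chrXII:593532-593579 (plus), chrXVI:856116-856163 (minus), chrIV:883786-883833 (minus), chrII:221424-221471 (plus) and chrXV:709591-709638 (minus) of R64.
YLR227W-B (Ty1): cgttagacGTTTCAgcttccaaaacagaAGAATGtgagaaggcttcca
YPR158C-D (Ty1): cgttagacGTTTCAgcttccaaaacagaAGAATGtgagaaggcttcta
YDR210C-D (Ty1): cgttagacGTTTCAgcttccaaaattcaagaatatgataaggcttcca
YBL005W-B (Ty1): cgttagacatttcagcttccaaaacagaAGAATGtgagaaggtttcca
YOR192C-B (Ty2): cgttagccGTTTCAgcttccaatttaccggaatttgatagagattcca
The pair, with 14 bases between the strings, was present in the elements of 14 Ty1 genes of the list, 13 of them with the first window and YPR158C-D with the second. The elements of 14 listed Ty1 genes shared the third window, in whose 48 bases only the Ste12 letters stand. YBL005W-B and YMR045C had only the Tec1 letters there. All 5 listed Ty2 genes, and the 5 Ty2 Gag-Pol genes of the table that were not listed, had the last window. Elements without the pair still held both strings within the 600 bases searched. YDR210C-D had 2 Ste12 matches and 1 Tec1 match, YBL005W-B had 1 and 3, and YOR192C-B had 2 and 2. The division is therefore by strand and spacing, not by whether both strings occur. For scale, of the 6018 stretches of 600 bases before protein-coding genes, 36.5% held the Ste12 letters, 47.8% held the Tec1 letters and 1.21% held such a pair. Those stretches lie before reading frames, whereas the window of YLR227W-B lies inside its own, and the element copies repeat nearly the same sequence. The shares are therefore no like-for-like background. These matches describe letters in the reference genome and are not measured binding.

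The list placed YGR161C-D in Ty2. It lies at chrVII:817747-823015 in an element annotated as Ty1 (YGRCTy1-3) and has the Ty1 slippery-site flanks, so it was treated as Ty1. YLR035C-A lies in no annotated full-length element and was kept in Ty1. This gave 30 Ty1 and 5 Ty2 genes with counts. By position, 28 of the 36 listed genes had a tRNA gene within 1000 bases (77.8%), measured from the element or, for YLR035C-A, from the gene itself, against 6.72% of 5966 other protein-coding genes. The median distance to the nearest tRNA gene was 197.5 bases for the listed genes and 16775 bases for the others.

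Copies of these elements are so alike that many reads have more than 1 home in the genome. The share of a gene's 100-base windows found once in R64 had a median of 2.55% over the 36 listed genes, with a lowest value of 0% and a highest of 25.1% in YNL284C-B. Every overlapping Gag-only open reading frame lay on the same strand as its Gag-Pol gene, and 33 of the 34 in the table were at 0 in all 4 libraries. The exception was YNL054W-A, the Gag gene of the same element as YNL054W-B, with 672 and 635 counts in *sis2Δ* and 492 and 251 counts in WT. The counts of the other genes therefore came from the part of Gag-Pol that no Gag-only frame covers, and levels are compared between genes in CPM, the count scaled to library size, per kilobase of that part. How reads with several homes were treated by the counting is not given in the sources used here. The 9 genes without any unique 200-base window in the counted part had between 7 and 204 counts in a library, and the other 26 had between 4 and 6668.

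Level and uniqueness ran together only in part. Across the 35 genes, the unique share of the whole gene and the level per kilobase of the counted part had a Spearman rho of 0.58. With the level on a log10 scale, the Pearson r was 0.51. These are descriptions across genes that share sequence and libraries. YGR027W-B had no unique 100-base window and YDR261C-D only 30 in its counted part, yet they stood at 21.1 and 24.9 CPM per kilobase. YBR012W-B and YLR035C-A had 468 and 318 such windows and stood at 2.80 and 0.904 CPM per kilobase. Between the unique share and the log2 fold change the Spearman rho was -0.13.

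**Figure D1:**
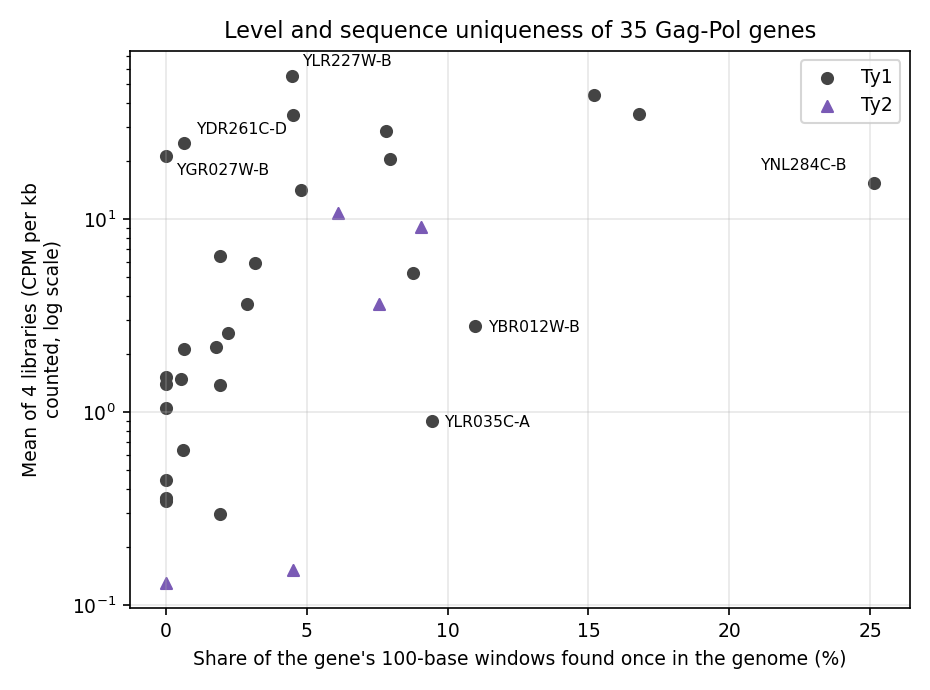
Share of each gene's 100-base windows, over its whole length, found once in the genome (horizontal axis, percent) against its mean level over the 4 libraries (vertical axis, log scale). The level is in CPM per kilobase of counted sequence. Circles are the 30 Ty1 genes and triangles the 5 Ty2 genes. YNL284C-B is farthest right at 25.1%, and YLR227W-B is highest at 55.1 CPM per kilobase.

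The libraries held 19158777 and 25399379 counts in *sis2Δ* and 28069619 and 19001619 counts in WT. *SIS2* itself had 6 and 9 counts in *sis2Δ* and 3991 and 2208 counts in WT, as the labels require. Over all 5959 genes that passed the filter on low values, the quasi-likelihood test of edgeR called 362 genes at a Benjamini-Hochberg adjusted p under 0.05 (6.07%), 162 higher in *sis2Δ* (2.72%) and 200 lower (3.36%). With scaling by library size alone the split was 188 higher and 128 lower. Both *sis2Δ* libraries lay above both WT libraries in 24.5% of genes and below them in 28.6%. Defining MATa genes were abundant in both strains, with the summed level of the 7 MATa markers at 2289 and 2328 CPM in *sis2Δ* and 1666 and 1746 CPM in WT, against 79.5 and 80.1 CPM in *sis2Δ* and 47.4 and 44.4 CPM in WT for 3 MATalpha markers.

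Summed over its 30 genes, Ty1 was 1.40-fold higher in *sis2Δ*. The Ty1 sum was 1506 and 1531 CPM in *sis2Δ* and 1227 and 941 CPM in WT. Both *sis2Δ* libraries were above both WT libraries, and WT B was well below WT A. The means were 1518 ± 18.1 CPM in *sis2Δ* and 1084 ± 203 CPM in WT (SD, n = 2 each), for a log2 fold change of 0.49 with a standard error of 0.20. Leaving out WT A gave 0.69 and leaving out WT B gave 0.33. The sum does not depend on how reads were divided among listed copies, but it does include only what the counting kept. In bulk RNA a higher sum cannot be divided into more cells carrying Ty1 RNA and more RNA per cell. Counts were assigned to the copies of build R64. Whether both strains carry those copies, and the same number of them, was not tested.

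The Ty2 sum overlapped between the strains. It was 112 and 93.3 CPM in *sis2Δ* and 94.2 and 81.0 CPM in WT, so the lower *sis2Δ* library was just under the higher WT library. The means were 103 ± 13.0 CPM in *sis2Δ* and 87.6 ± 9.34 CPM in WT (SD, n = 2 each), and the log2 fold change was 0.23 with a standard error of 0.12. With the 5 unlisted Ty2 Gag-Pol rows added, the sum was 278 and 239 CPM in *sis2Δ* and 212 and 188 CPM in WT, without overlap, and the log2 fold change was 0.37. The 2 values have standard errors of 0.12 each. No test of Ty1 against Ty2 was made because the genes were chosen on this contrast.

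For the same reason the fold changes of single genes are descriptions. All 35 genes passed the filter on low values. The log2 fold change was above 0 in 28 of them, 25 of 30 in Ty1 and 3 of 5 in Ty2, with a median of 0.31 against -0.005 over all tested genes. Both *sis2Δ* libraries lay above both WT libraries in 19 genes (24.5% of all genes did), lay below them in 1 (28.6%), and overlapped them in 15. The threshold was passed by 5 genes higher in *sis2Δ* (2.72% of all genes) and by 0 lower (3.36%) with edgeR. With limma-voom it was also 5 and 0, beside 156 higher and 197 lower over all genes. DESeq2 gave 6 and 0, beside 199 higher and 210 lower over all genes. At an unadjusted p under 0.05 there were 13 higher and 1 lower, a cut for which no share over all genes is given here. The number past the threshold with edgeR also changed when WT A or WT B was left out, which leaves 1 WT library. Since the list was selected on this contrast, nothing is read from these counts.

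**Figure D2:**
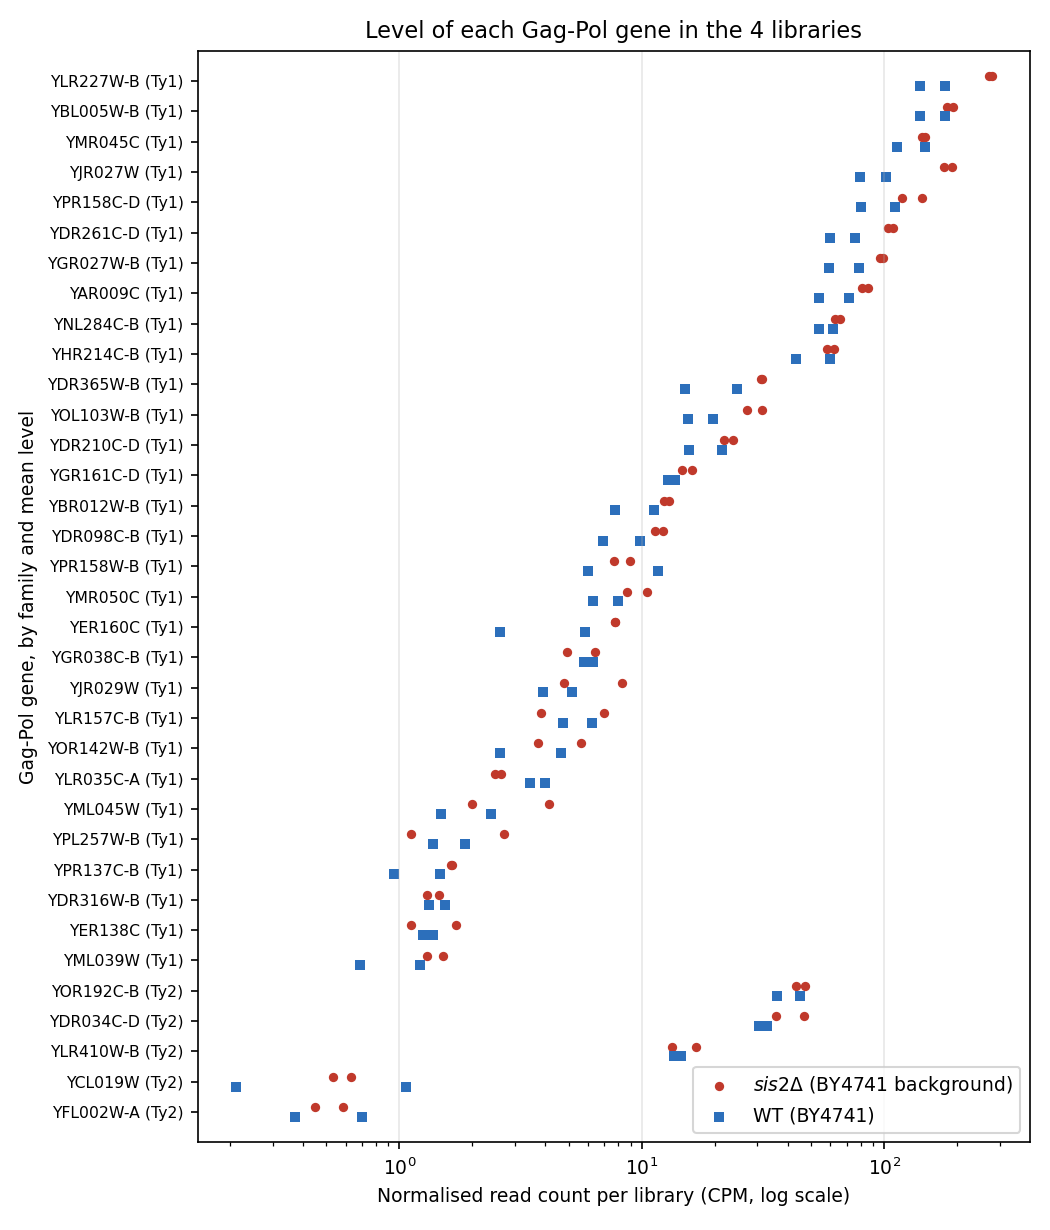
Normalised read count of each of the 35 genes in each library (horizontal axis, CPM, log scale), ordered by family and mean level; circles are the 2 *sis2Δ* libraries and squares the 2 WT libraries. Genes run between 217 CPM on average for YLR227W-B and 0.525 CPM for YFL002W-A, and the *sis2Δ* points stand to the right of the WT points for most Ty1 genes above 10 CPM.

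A few copies held most of the Ty1 counts. The 6 with the highest mean level, YLR227W-B, YBL005W-B, YMR045C, YJR027W, YPR158C-D and YDR261C-D, together made up 66.6% of the Ty1 sum. YLR227W-B, on chromosome XII at 593438-598706, was the most abundant at 55.1 CPM per kilobase. It had 279 and 272 CPM in *sis2Δ* and 179 and 140 CPM in WT. The 2 strains did not overlap, and the log2 fold change was 0.79 with a standard error of 0.13. Its part of all Ty1 counts was 18.1 ± 0.542% in *sis2Δ* and 14.7 ± 0.230% in WT (SD, n = 2 each).

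YJR027W, on chromosome X at 472760-478028, had the largest fold change of the 35 genes. It stood at 177 and 190 CPM in *sis2Δ* and 102 and 79.5 CPM in WT, for a log2 fold change of 1.01 with a standard error of 0.13. Its *sis2Δ* libraries were far above both WT libraries, and its part of the Ty1 counts was 12.1% in *sis2Δ* and 8.39% in WT. The next gene downstream, YJR029W at 478344-483612, belongs to a second Ty1 element on the same strand. It had 4.77 and 8.31 CPM in *sis2Δ* and 5.14 and 3.92 CPM in WT, and the strains overlapped. With no unique 200-base window in YJR029W, what it gave to its neighbours' counts cannot be told apart.

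The next most abundant genes after YLR227W-B had smaller fold changes. YBL005W-B, on chromosome II at 221330-226598, had 192 and 183 CPM in *sis2Δ* and 179 and 141 CPM in WT, a log2 fold change of 0.23 with a standard error of 0.12. YMR045C, on chromosome XIII at 357359-362627, had 148 and 144 CPM in *sis2Δ* and 148 and 113 CPM in WT, a log2 fold change of 0.16 with a standard error of 0.13. In both genes the *sis2Δ* libraries were close to WT A, and only WT B was clearly lower. Their parts of the Ty1 counts were 12.3% and 9.61% in *sis2Δ* and 14.8% and 12.01% in WT. Over the whole gene, 15.2% and 16.8% of their 100-base windows were unique. In the counted part alone the shares were 11.2% and 7.28%.

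YPR158C-D and YDR261C-D completed the abundant set. YPR158C-D, on chromosome XVI at 850989-856257, had 118 and 143 CPM in *sis2Δ* and 111 and 80.4 CPM in WT, a log2 fold change of 0.45 with a standard error of 0.15. YDR261C-D, on chromosome IV at 987534-992349, is shorter than the usual 5269 bases at 4816. It had 109 and 104 CPM in *sis2Δ* and 75.6 and 59.7 CPM in WT, a log2 fold change of 0.65 with a standard error of 0.12. Both genes were higher in both *sis2Δ* libraries, by a wide margin only in YDR261C-D.

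Of the remaining Ty1 genes at 10 CPM or more, YGR027W-B had 96.5 and 98.6 CPM in *sis2Δ* and 78.9 and 59.2 CPM in WT (log2 fold change 0.50). YOL103W-B had 27.2 and 31.3 CPM in *sis2Δ* and 19.6 and 15.5 CPM in WT (0.73), and YDR365W-B had 31.1 and 31.2 CPM in *sis2Δ* and 24.8 and 15.1 CPM in WT (0.63). In these 3 the strains did not overlap. YNL284C-B, with the largest unique share over the whole gene, had 62.7 and 65.9 CPM in *sis2Δ* and 61.3 and 53.8 CPM in WT. Its log2 fold change was 0.16, and its *sis2Δ* libraries were only just above WT A. In the counted part its unique share was 12.1%, against 12.2% in YBR012W-B. YAR009C, which is annotated as the Pol part alone, had 86.2 and 80.9 CPM in *sis2Δ* and 72.0 and 53.8 CPM in WT (0.41). YHR214C-B had 62.2 and 57.9 CPM in *sis2Δ* and 59.5 and 43.3 CPM in WT (0.22), with overlap. YDR210C-D had 21.9 and 23.8 CPM in *sis2Δ* and 21.5 and 15.7 CPM in WT (0.29), and YGR161C-D had 14.7 and 16.2 CPM in *sis2Δ* and 13.7 and 12.9 CPM in WT (0.22). YBR012W-B had 12.9 and 12.4 CPM in *sis2Δ* and 11.2 and 7.73 CPM in WT (0.40), and YDR098C-B had 11.3 and 12.3 CPM in *sis2Δ* and 9.85 and 6.93 CPM in WT (0.47). In these last 4 the strains did not overlap. Over all 16 Ty1 genes at 10 CPM or more, the log2 fold change lay between 0.16 and 1.01 with standard errors between 0.11 and 0.18, and 14 of them did not overlap between strains.

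The 14 Ty1 genes under 10 CPM were scattered more widely, between -0.53 and 0.83 with standard errors between 0.18 and 0.39, and 9 were above 0. YER160C was the second highest of all genes by fold change, with 7.78 CPM in each *sis2Δ* library and 5.84 and 2.59 CPM in WT (0.83, standard error 0.27). It has no unique 100-base window in its counted part. YMR050C had 10.5 and 8.68 CPM in *sis2Δ* and 7.97 and 6.30 CPM in WT (0.41), and YPR137C-B had 1.65 and 1.63 CPM in *sis2Δ* and 1.47 and 0.953 CPM in WT (0.39), both without overlap. The strains overlapped in YJR029W, given above, and in the next 6 genes. YML045W had 1.99 and 4.16 CPM in *sis2Δ* and 2.39 and 1.48 CPM in WT (0.65), and YOR142W-B had 5.59 and 3.75 CPM in *sis2Δ* and 4.63 and 2.59 CPM in WT (0.31). YPL257W-B had 1.12 and 2.69 CPM in *sis2Δ* and 1.87 and 1.38 CPM in WT (0.24). YLR157C-B had 3.84 and 6.97 CPM in *sis2Δ* and 6.21 and 4.71 CPM in WT (-0.01), and YGR038C-B had 4.91 and 6.44 CPM in *sis2Δ* and 6.32 and 5.77 CPM in WT (-0.09). YPR158W-B had 7.68 and 8.92 CPM in *sis2Δ*, between the 11.7 and 5.98 CPM in WT (-0.12). The 3 lowest levels were those of YML039W, YER138C and YDR316W-B. YML039W had 31 and 32 counts in *sis2Δ* and 33 and 13 counts in WT, which is 1.51 and 1.30 CPM in *sis2Δ* and 1.21 and 0.688 CPM in WT, without overlap (0.49, standard error 0.39). YER138C had 23 and 42 counts in *sis2Δ* and 34 and 26 counts in WT, and YDR316W-B had 30 and 32 counts in *sis2Δ* and 42 and 25 counts in WT. At such counts the fold changes of these 3 genes had standard errors of 0.33 to 0.39.

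YLR035C-A was the 1 gene below WT in both *sis2Δ* libraries. This stretch on chromosome XII at 215440-218907, without an annotated element around it, had 54 and 61 counts in *sis2Δ* and 94 and 75 counts in WT. In CPM that is 2.63 and 2.49 in *sis2Δ* and 3.45 and 3.97 in WT, a log2 fold change of -0.53 with a standard error of 0.23, the lowest of the 35.

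Among the Ty2 genes, YOR192C-B on chromosome XV and YDR034C-D on chromosome IV held most of the counts. YOR192C-B, at 704419-709732, had 47.0 and 43.1 CPM in *sis2Δ* and 45.1 and 36.3 CPM in WT, so the strains overlapped (log2 fold change 0.14, standard error 0.13). YDR034C-D, at 514043-519356, had 46.7 and 35.9 CPM in *sis2Δ* and 32.8 and 30.5 CPM in WT (0.38, standard error 0.14), the only listed Ty2 gene without overlap. YLR410W-B on chromosome XII had 16.7 and 13.3 CPM in *sis2Δ* and 14.5 and 13.6 CPM in WT (0.09, standard error 0.15).

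The other listed Ty2 genes were near the limit of counting. YCL019W on chromosome III had 13 counts in each *sis2Δ* library and 29 and 4 counts in WT, with a log2 fold change of -0.29 and a standard error of 0.62. YFL002W-A on chromosome VI had 12 and 11 counts in *sis2Δ* and 19 and 7 counts in WT (-0.14, standard error 0.57). In both the WT libraries lay on either side of the *sis2Δ* libraries. Of the unlisted Ty2 Gag-Pol genes, YBL100W-B had 44.8 and 37.9 CPM in *sis2Δ* and 26.4 and 24.9 CPM in WT, a log2 fold change of 0.69, which was above that of every listed Ty2 gene.

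The Ty1 copies divided by the closely spaced pair of Ste12 and Tec1 letters printed above also differed in their values. The 14 genes with the pair had a median log2 fold change of 0.50, between -0.01 in YLR157C-B and 1.01 in YJR027W. The 15 measured genes in annotated elements without it had a median of 0.23, between -0.12 in YPR158W-B and 0.83 in YER160C. At 10 CPM or more, the 8 genes with the pair lay between 0.41 and 1.01 (median 0.64) and the 8 without it between 0.16 and 0.47 (median 0.22). Only YDR098C-B, at 0.47, reached into the range of the genes with the pair. Under 10 CPM, genes with the pair lay between -0.01 in YLR157C-B and 0.53 in YJR029W. Those without it lay between -0.12 in YPR158W-B and 0.83 in YER160C, around that range. The groups therefore stood apart only at 10 CPM or more. The division and the limit of 10 CPM were chosen after the values had been seen, so no test is given. Leaving out WT A put the 2 medians at 0.87 and 0.44, and leaving out WT B at 0.43 and 0.10.

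The same division can be read within each library, where scaling plays no part. Genes with the pair held 62.2% and 63.5% of the summed Ty1 counts in *sis2Δ* and 55.4% and 54.9% in WT. YBL005W-B and YMR045C together held 22.6% and 21.3% in *sis2Δ* and 26.6% and 27.0% in WT, and the other 14 Ty1 genes held 15.2% and 15.1% in *sis2Δ* and 18.0% and 18.1% in WT. As shares of the Ty1 total, YLR227W-B and YJR027W carried the rise of the genes with the pair. The other 12 genes with the pair held 32.0% and 33.4% of it in *sis2Δ* and 32.5% and 31.5% in WT. These shares overlapped between the strains. The total still includes YLR227W-B and YJR027W, whose own rise lowers the shares of all other genes. In CPM, the genes with the pair summed to 937 and 973 in *sis2Δ* and 680 and 516 in WT, 1.60-fold higher on the means. Without YLR227W-B and YJR027W they summed to 482 and 511 in *sis2Δ* and 399 and 297 in WT, 1.43-fold. The whole Ty1 sum, which includes these 2 genes, was 1.40-fold higher. The ratio was 1.15-fold for YBL005W-B with YMR045C and 1.18-fold for the other 14.

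Copies without the pair also had high values. YNL054W-A, whose element has the third window and no pair, had 32.7 and 25.9 CPM in *sis2Δ* and 18.1 and 13.3 CPM in WT, a log2 fold change of 0.89 with a standard error of 0.17. YBL100W-B, given above, carries the Ty2 window, and among the unlisted Ty2 genes at 10 CPM or more the log2 fold change lay between 0.43 and 0.69. The copies with the pair differ from the others elsewhere in their sequence too, and 10 of the 14 have the first slippery-site version. Unique 100-base windows in the counted part differed as well among Ty1 genes at 10 CPM or more. Their share lay between 0% in YGR027W-B and 7.96% in YAR009C with the pair. Without it, the share lay between 2.99% in YDR098C-B and 12.2% in YBR012W-B. Which sequence difference goes with the values was not tested.

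**Figure D3:**
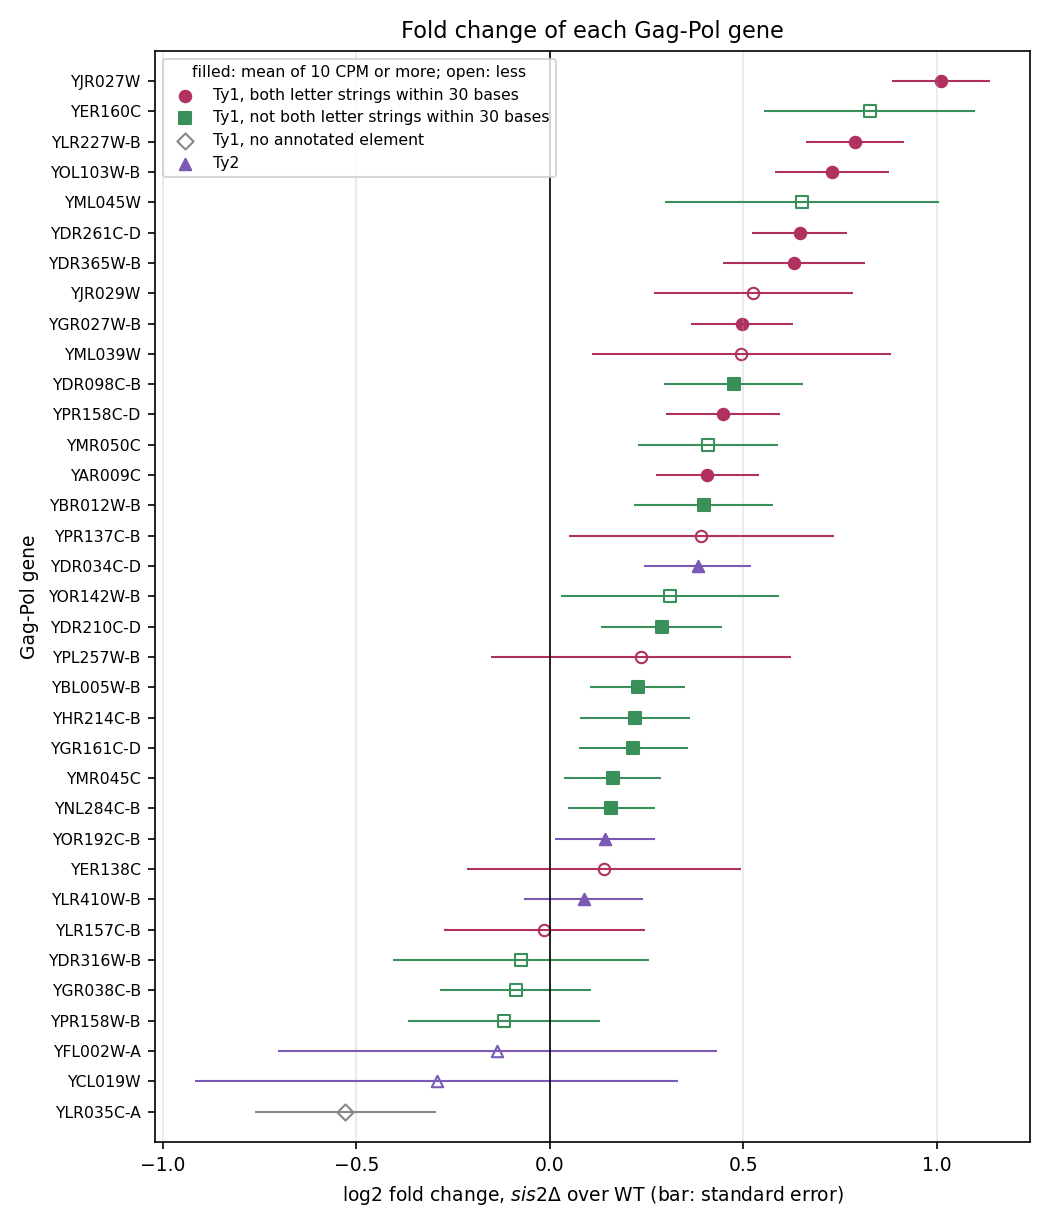
Log2 fold change of each gene, *sis2Δ* over WT (horizontal axis), with its standard error as a bar; colour and shape give the Ty1 genes with both the Ste12 and the Tec1 letters within 30 bases, the Ty1 genes without that pair, the Ty1 gene in no annotated element, and Ty2. Filled symbols have a mean of 10 CPM or more. The filled circles, with the pair, lie between 0.41 and 1.01 and the filled squares, without it, between 0.16 and 0.47. Open circles and open squares overlap.

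The genes that act on Ty1 were taken from lists by role. Of 10 transcription factors of Ty1, 3 rose in *sis2Δ* by edgeR's test (2.72% of all genes did) and 0 fell (0 at an unadjusted p under 0.05, 0 by limma-voom and 0 by DESeq2). *STE12*, which encodes the factor shared by mating and filamentous growth, had 141 and 130 CPM in *sis2Δ* and 107 and 94.6 CPM in WT, a log2 fold change of 0.42 (standard error 0.11, edgeR adjusted p = 0.0382). *TEC1*, whose product pairs with Ste12 at filamentation genes and at Ty1, had 164 and 139 CPM in *sis2Δ* and 120 and 104 CPM in WT, 0.43 (standard error 0.12, edgeR adjusted p = 0.0490). *MCM1*, which encodes a MADS-box factor with a site in Ty1, had 168 and 105 CPM in *sis2Δ* and 87.8 and 78.3 CPM in WT, 0.71 (standard error 0.17, edgeR adjusted p = 0.0297). In all 3 both *sis2Δ* libraries were above both WT libraries, and *sis2Δ* A was the higher one.

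*GCR1*, a glycolytic gene activator that also binds Ty elements, had 189 and 176 CPM in *sis2Δ* and 205 and 192 CPM in WT (-0.12, edgeR adjusted p = 0.548). Of 12 genes listed with the kinase pathway that leads to Ste12 and Tec1, *FUS3* alone rose by edgeR's test (2.72% of all genes did). From that list 0 fell (3.36% of all genes did), with 0 at an unadjusted p under 0.05, 0 by limma-voom and 0 by DESeq2. The list also held *FLO8* and *MSS11*, which encode transcription factors. *FUS3*, the mating kinase, which marks Tec1 for destruction, had 67.2 and 55.2 CPM in *sis2Δ* and 47.8 and 36.7 CPM in WT (0.53, standard error 0.14, edgeR adjusted p = 0.0483). *KSS1*, the filamentation kinase, had 49.8 and 49.9 CPM in *sis2Δ* and 51.4 and 53.9 CPM in WT (-0.08, edgeR adjusted p = 0.717). These 4 calls were sensitive to single libraries. Without *sis2Δ* A all 4 were lost (edgeR adjusted p between 0.121 and 0.232), and without WT B those of *STE12*, *TEC1* and *FUS3* were lost (0.313 to 0.335). *TEC1* and *FUS3* also missed the threshold without the filter on low values (0.0585 and 0.0639) and with 10 counts required in every library (0.0507 and 0.0503).

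**Figure D4:**
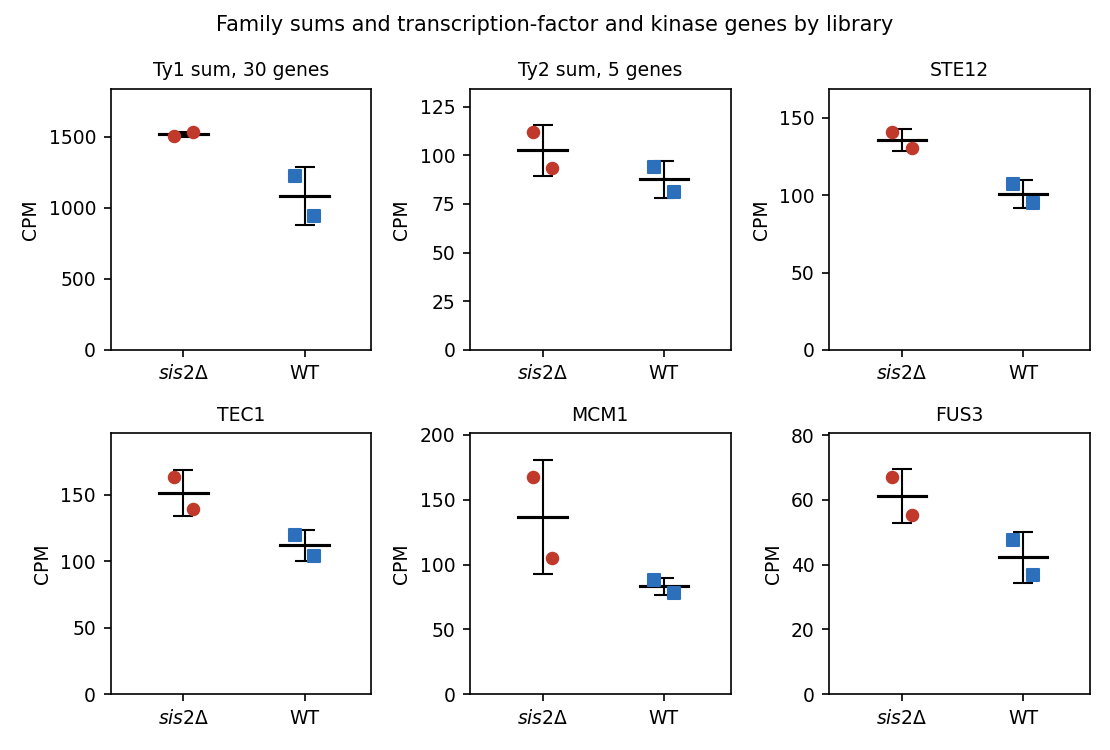
Normalised read count (vertical axes, CPM, starting at 0) of the Ty1 and Ty2 sums and of *STE12*, *TEC1*, *MCM1* and *FUS3* in each library, *sis2Δ* left of WT; points are libraries, horizontal lines the means and bars the SD (n = 2 each). The Ty1 sum stands at 1518 CPM in *sis2Δ* and 1084 CPM in WT, and in each panel but that of Ty2 both *sis2Δ* points are above both WT points.

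The other lists held no gene past the threshold. They covered the SAGA and SWI/SNF coactivators (12 genes), chromatin and histone regulators that hold Ty1 down (18), RNA decay and retrosome factors (14), partners of integration such as subunits of RNA polymerase III (19) and genome maintenance genes that restrict Ty1 (21). Among these 84 genes edgeR, limma-voom and DESeq2 each called 0 in either direction. Of all genes, edgeR called 2.72% higher and 3.36% lower. At an unadjusted p under 0.05, 13 of the 84 were higher and 1 lower. No share over all genes is given here for that cut, so nothing is read from it. Their median log2 fold changes lay between -0.03 for the integration partners and 0.15 for the coactivators. Among other Ty families, 1 of 5 tested rows rose by edgeR's test, the Ty3 gene YIL082W-A, with 1305 and 1175 counts in *sis2Δ* and 2 counts in each WT library. The other 4 lay between -0.26 for the Ty4 gene YHL009W-B and 0.44 for the second Ty3 gene YGR109W-B.

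Of the 14 tested markers of mating type and haploid cells, 8 rose in *sis2Δ* by edgeR's test (2.72% of all genes did). They were 4 of the 7 MATa markers, among them *AGA2*, an agglutinin subunit gene (0.96, edgeR adjusted p = 0.000254), and *MFA1*, an a-factor gene (0.90, edgeR adjusted p = 0.000614). *MFA2*, the other a-factor gene (0.64, edgeR adjusted p = 0.0228), and *ASG7*, an a-specific signalling gene (0.57, edgeR adjusted p = 0.0276), completed the 4. Of 3 tested MATalpha markers 2 rose, the agglutinin gene YJR004C (0.89, edgeR adjusted p = 0.000660) and the alpha-factor gene YPL187W, with 51 and 38 counts in *sis2Δ* and 10 and 13 counts in WT (1.97, edgeR adjusted p = 0.0222). Of 4 genes shared by haploid cells 2 rose, *FUS3* and the G protein gene *GPA1* (0.45, edgeR adjusted p = 0.0230). The calls of *MFA2*, *ASG7*, YPL187W and *GPA1* were lost without WT A (edgeR adjusted p between 0.0888 and 0.206). Those of *ASG7* and *GPA1* were also lost without WT B (0.0750 and 0.120), those of *GPA1* and YPL187W without *sis2Δ* A (0.0661 and 0.125), and that of *ASG7* without *sis2Δ* B (0.0518). The part of these genes in the Ty1 values was not tested.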

How the data were processed

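PolyA RNA of 2 *sis2Δ* and 2 WT cultures was sequenced by the authors as stranded 100-base read pairs. Per the submitters' processing notes, cutadapt 3.7, STAR 2.7.8a, featureCounts 2.0.1 and limma 3.48.0 were used with build R64 (sacCer3). The deposited counts are whole reads per gene, counted by the authors in reverse-stranded mode without normalization. A second deposited table holds the authors' own fold changes and p-values and was not used.

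Counts were fitted with edgeR 4.0.16 (R 4.3.3; quasi-likelihood F-test, TMM scaling, a minimum of 0.5 CPM in 2 or more libraries, Benjamini-Hochberg at 0.05), tested on simulated data. CPM values use the TMM-scaled library size. Family sums replaced their members' rows in the same fit. limma-voom (limma 3.58.1), DESeq2 1.42.0, other scalings and filters, a replicate block and single left-out libraries were alternatives. With totals between 19001619 and 28069619, a floor of 3 counts is 0.110 to 0.159 CPM, covering counting error only. An exact permutation test of 2 against 2 libraries cannot go below 0.333. Spread between cultures is all that p-values measure. Named genes were every member by its counts, the 6 highest and 3 lowest Ty1 genes by level, all Ty2 genes, the 3 highest and 3 lowest fold changes, every listed gene past the threshold, and *TEC1*, *STE12*, *FUS3*, *KSS1*, *MCM1*, *GCR1* and *SIS2*. Members and lists were chosen with earlier results of these data known.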

Additional observations from a re-analysis of the deposited data

How the results depend on the processing

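The number of genes called was 788 with a replicate block and ranged between 190 and 985 when 1 library was left out, against 362. The number of genes called on the 7 lists was 2 without the filter on low values, 2 with at least 10 counts in every library, 16 with the replicate block and between 0 and 17 when 1 library was left out, against 4. The culture letters were not used as pairs in the main fit. The difference between A and B in *sis2Δ* and in WT had a correlation of 0.09 over 5959 genes. The paper calls the replicates independent. Whether cultures of the same letter were handled together is not given, and the correlation cannot settle it. Members past the threshold, all higher in *sis2Δ*, numbered 8 with library size alone and 11 with the replicate block, against 5. Over all genes, 188 and 408 were called higher in these 2 settings, against 162. The number of members also changed without WT A and without WT B. The Ty1 log2 fold change was between 0.33 and 0.69 when 1 library was left out. It was 0.43 without YJR027W and YER160C, the 2 genes with the largest fold changes, an alternative chosen after seeing the data. YER160C made up 0.461% of the Ty1 sum. YLR227W-B stayed in that alternative. The Ty2 value was between 0.10 and 0.35. The median share of unique windows was 0.958% for 50 bases, 5.71% for 200, 8.08% for 300 (added after seeing the data) and 2.79% for 100 bases of the counted part. The causes were not tested. Depth limits genes of few counts, such as YCL019W with 4 counts in WT B and a standard error of 0.62.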
